A study of Mus musculus with 6 samples.

Results

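The replication fork is the machine that copies DNA, and 36 of the genes that build it were followed here in CT26, a mouse (BALB/c) colon carcinoma cell line, with and without knockdown of Sep15, the 15 kDa selenoprotein of the endoplasmic reticulum. The list holds the replicative polymerases, the sliding clamp and its loader, the single-strand binding protein, the enzymes that finish lagging strands, the partners of the helicase and a histone assembly factor. Members were taken by gene symbol, from a list drawn up with earlier results of these data known. A gene's value was taken from the probe set (a group of probes against one transcript) with the highest mean over all 6 arrays. Of the 36 listed genes 35 were measured, among 18193 genes in all; Chaf1a was not analysed here.

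Control cells received the empty pU6-m3 vector (3 arrays), and shSep15 cells the same vector with a short hairpin RNA made from a stretch of the Sep15 cDNA (3 arrays). Total RNA was hybridised to Affymetrix Mouse430_2 arrays, and values are log2 intensities after RMA. There was 1 hairpin construct, and whether a clone or a pool of transfected cells was used is not stated. The arrays of a group came from different mRNA samples, not stated to be separate cultures, so p-values measure the spread between these samples, which may be technical.

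At a fork, the Mcm helicase is completed by Cdc45 and the GINS complex, and replication protein A coats the strands it opens. Polymerase alpha-primase lays down primers, replication factor C loads the clamp Pcna, and polymerase epsilon and polymerase delta extend the leading and the lagging strand. Flap nucleases, ribonuclease H2 and DNA ligase then join the lagging fragments, and chromatin assembly factor puts histones behind the fork. Many of these genes are known to be transcribed at the start of S phase under the E2F factors.

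The knockdown was present on each shSep15 array: Selenof, the current symbol of Sep15, read 12.41, 12.44 and 12.35 on the control arrays and 9.34, 9.59 and 9.50 on the shSep15 arrays (log2 difference −2.92, SE 0.08, limma adjusted p = 2.43e-07). A dimmer Selenof probe set lay under background in both groups. Array medians lay between 5.83 and 5.87, and the mean correlation of an array with its own group was 0.993 to 0.995, against 0.977 to 0.979 with the other. The 3′ minus 5′ value of the Actb control probe sets was 0.25 to 0.31 in control and 0.20 to 0.31 in shSep15 cells, and that of Gapdh −0.12 to −0.08 and −0.10 to −0.01. Of 12 colon epithelial markers 7 lay under the background level of 6.02 in both groups, among them Cdh1 (4.03 in control cells), Cdx2 (5.60) and Vil1 (4.90), while Epcam was present (7.59). Krt20 (8.28 to 6.15), Lgals4 (6.85 to 5.84) and Krt18 (6.65 to 4.48) were above background in control cells and fell. Median levels of the epithelial markers were 5.37 to 5.77 on the control and 5.35 to 5.45 on the shSep15 arrays. The leukocyte gene Ptprc (4.14 and 4.23) and the endothelial gene Pecam1 (5.09 and 5.11) were under background in both groups. Above it in both groups were the leukocyte genes Cd14 (9.33 and 8.60), Csf1r (7.11 and 7.20) and Cd3e (6.26 and 6.39). The endothelial gene Kdr (6.24 and 6.22) was just above it. The medians of 7 leukocyte markers were 5.73 to 5.84 and 5.77 to 5.93, with Itgam and Cd14 lower, and those of 5 endothelial markers 5.05 to 5.14 and 4.92 to 5.36. Of 7 fibroblast markers 3 rose, Pdgfra (1.35), Col1a1 (1.32) and Col1a2 (0.64), and 2 fell, Pdgfrb (−3.36) and Dcn (−1.72). Their medians were 7.65 to 7.94 on the control and 5.92 to 6.17 on the shSep15 arrays, but the median of their differences was −0.04. The part of these markers in the results below was not tested.

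Most fork genes were higher in shSep15 cells. Of 35 measured, 26 rose (74.3%) and 2 fell at a limma adjusted p under 0.05, while over all 18193 genes 12.2% rose and 12.8% fell, 25% in either direction. The median log2 difference of the 35 genes was 0.67, which is 1.6-fold, and the middle of their range ran from 0.31 to 1.09 between the quartiles. Over all genes the median was 0.01. Among the members 11 rose at least 2-fold (31.4%), against 2.33% of all genes, and 0 fell that far, against 3.09%. All 35 members lay above the background level in both groups, so the share of genes above background is the closer comparison, and of those 10876 genes 19.3% rose and 19.8% fell, 39.1% in either direction. At least 2-fold, 3.71% of them rose and 4.7% fell. In bulk RNA, more cells in S phase and more of these transcripts per cell cannot be told apart.

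**Figure D1:**
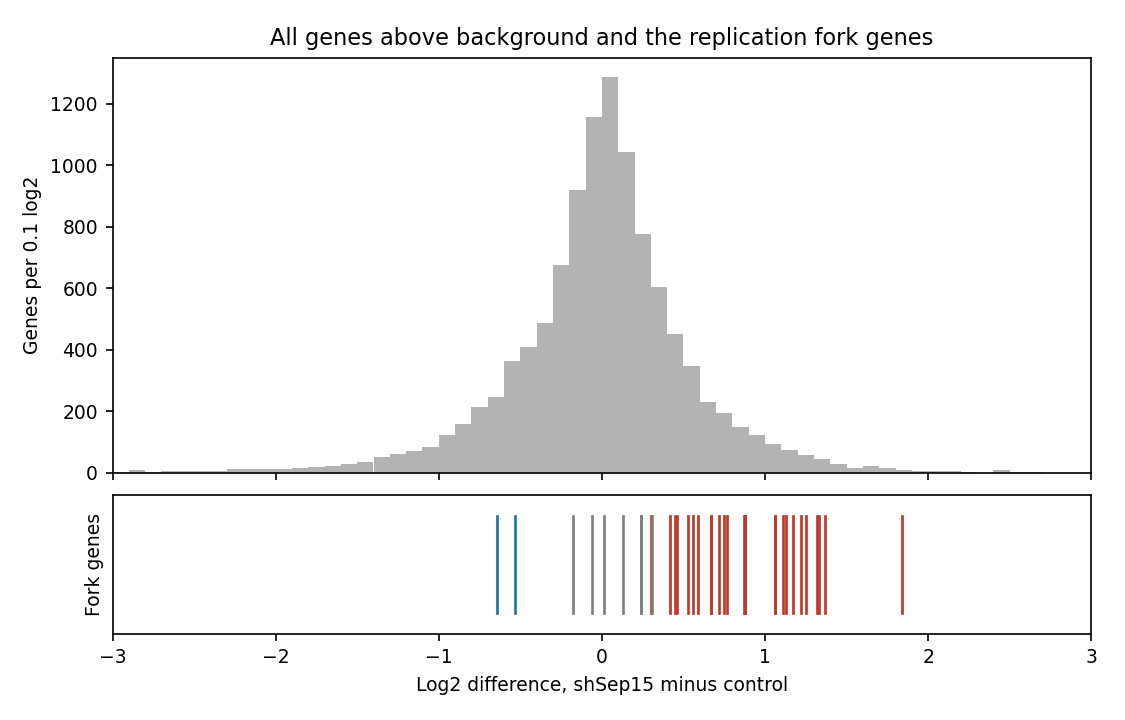
Upper panel: number of genes per 0.1 log2 of difference (shSep15 minus control) for the 10876 genes above the background level, of which 32 lie beyond the axis at 3 in either direction. Lower panel: each of the 35 fork genes as a line, red where it rose, blue where it fell and grey where it was not past the threshold; most lie to the right of the peak, around their median of 0.67.

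Array by array the shift was even. Against the control mean, the median of the 35 members was 0.68, 0.70 and 0.68 on the shSep15 arrays, against −0.08, 0.08 and 0.03 on the control arrays. Over all genes above background the same medians lay between −0.04 and 0.02. For 28 members every shSep15 array lay above every control array, and for 3 every one lay below, against 19.3% and 18.7% of all genes and 27.9% and 27.2% of genes above background. The groups overlapped for only 4 members: Pold2, Pole3, Rfc4 and Rpa3. Control array 1 was the lowest control for 21 of the 35 members and control array 2 the highest for 21. Spread within a group was small, with a median SD of 0.12 (control) and 0.07 (shSep15).

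**Figure D2:**
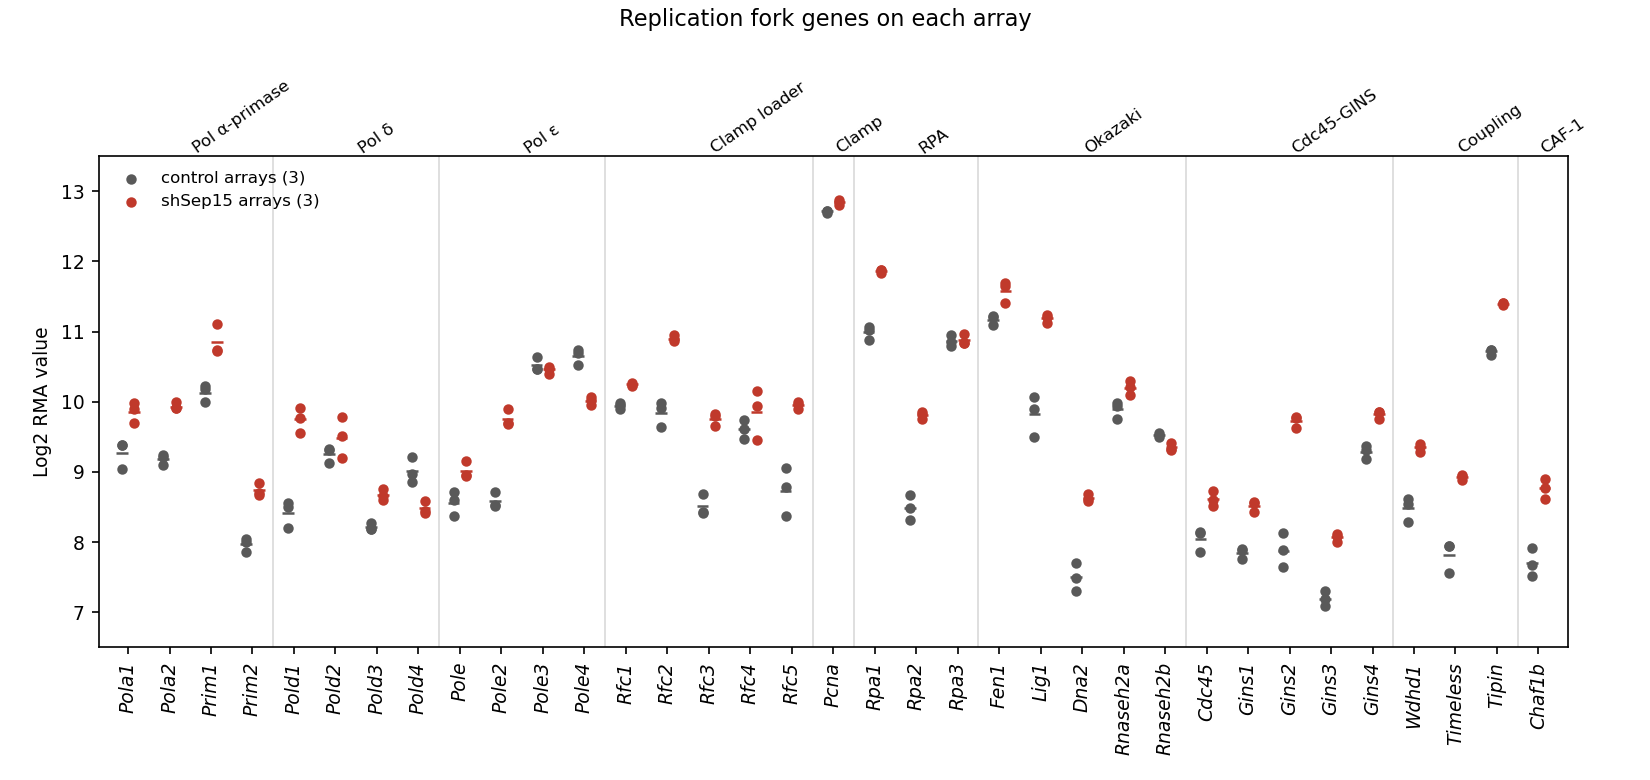
Log2 RMA value (vertical axis) of each fork gene on each array, with genes ordered by their role; grey points are the 3 control arrays, red points the 3 shSep15 arrays and short lines the group means. Red points lie above grey ones for 28 of 35 genes and below them for Pold4, Pole4 and Rnaseh2b. The ranges of red and grey points overlap for Pold2, Pole3, Rfc4 and Rpa3.

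Because the members moved together, the DNA just before their start sites was read for motifs of the factors known to act on S-phase genes. RefSeq windows (GRCm38.p6) of 250 bases before the start were found for 28 of the 36 genes. The E2F words TTTCGCGC and TTTGGCGC, read on both strands, stood in 2 of the 28, Rfc3 and Pola1, against 0.759% of the 27025 genes with a window. With the words TTTCCCGC and TTTGCCGC, which were added after the data were seen, 4 of the 28 held one, against 2.16% of genes. These were Rfc3, Pola1 and Gins3, which rose, and Pole4, which fell on its brightest probe set. The NF-Y word CCAAT stood in 14 of 28 (50%), against 37.5% of genes, and the CHR word TTTGAA in 4 (14.3%), against 18.3%. All these gene shares are over genes with a window, measured or not. Shares among genes above background were not taken, and no test compared members with them. Among members with a window, CCAAT was held by 8 of the 19 that rose and by 5 of the 8 measured ones that did not. No E2F word shares bases with a CCAAT or TTTGAA word in the windows printed here. Within the 250 bases, however, Rfc3, Pola1 and Gins3 hold CCAAT as well as an E2F word, and Gins3 also holds TTTGAA. Pole4 holds an E2F word without CCAAT or TTTGAA.

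The 150 bases before the start are shown for the 4 holders of an E2F word, for Pold4, the other member that fell, and for the pair Rpa2 and Rpa3, subunits of one complex of which the first rose and the other was not past the threshold. Capitals mark E2F words and CCAAT boxes, in either orientation.
Rfc3 (chr5:151651209-151651358, minus strand): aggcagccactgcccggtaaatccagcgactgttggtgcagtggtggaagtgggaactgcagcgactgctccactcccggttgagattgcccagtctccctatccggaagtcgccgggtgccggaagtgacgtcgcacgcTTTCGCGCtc
Pola1 (chrX:93632156-93632305, minus strand): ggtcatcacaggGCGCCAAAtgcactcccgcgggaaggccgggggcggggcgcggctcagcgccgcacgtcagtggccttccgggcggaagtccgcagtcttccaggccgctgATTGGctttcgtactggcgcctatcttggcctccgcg
Gins3 (chr8:95633409-95633558, plus strand): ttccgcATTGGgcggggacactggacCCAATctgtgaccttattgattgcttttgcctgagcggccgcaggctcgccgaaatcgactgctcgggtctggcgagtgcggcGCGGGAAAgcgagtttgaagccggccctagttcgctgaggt
Pole4 (chr6:82652866-82653015, minus strand): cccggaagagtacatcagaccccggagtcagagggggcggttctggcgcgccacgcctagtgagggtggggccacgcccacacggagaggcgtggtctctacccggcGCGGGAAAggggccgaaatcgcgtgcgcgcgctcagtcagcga
Pold4 (chr19:4231743-4231892, plus strand): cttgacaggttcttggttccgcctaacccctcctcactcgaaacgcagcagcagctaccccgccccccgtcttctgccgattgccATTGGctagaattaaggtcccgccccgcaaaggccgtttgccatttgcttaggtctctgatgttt
Rpa2 (chr4:132768210-132768359, plus strand): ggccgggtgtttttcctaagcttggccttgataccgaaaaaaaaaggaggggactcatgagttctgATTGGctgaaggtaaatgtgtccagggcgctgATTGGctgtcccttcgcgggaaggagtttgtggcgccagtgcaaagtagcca
Rpa3 (chr6:8259142-8259291, minus strand): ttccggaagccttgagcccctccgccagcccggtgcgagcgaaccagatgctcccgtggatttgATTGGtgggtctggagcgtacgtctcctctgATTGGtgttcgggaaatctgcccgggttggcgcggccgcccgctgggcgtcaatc
The E2F word ends 2 bases before the start in Rfc3, 33 in Gins3, 35 in the Pole4 window shown and 130 in Pola1. Rpa2 and Rpa3 each show a pair of CCAAT boxes at like distances, 47 and 79 bases before the start in Rpa2 and 50 and 81 in Rpa3. Outside the bases shown, CCAAT also stands at 226 in Rpa2, at 224 in Rfc3 and at 184 in Pold4. Letters alone are a description of these windows and not of binding.

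The helicase partners all rose. Gins2, a subunit of the GINS ring that holds the helicase together, read 7.64, 8.13 and 7.89 on the control arrays and 9.77, 9.78 and 9.62 on the shSep15 arrays. Every shSep15 array stood at least 1.49 above the highest control. That was the greatest rise of the list, 3.57-fold (log2 1.84, SE 0.14, limma adjusted p = 2.81e-05), and a further probe set of the gene gave 1.97. Gins3 rose by 0.88 (SE 0.11), Gins1 by 0.67 (SE 0.11) and Gins4 by 0.53 (SE 0.09), at limma adjusted p of 0.000561, 0.00207 and 0.0033. Thus all 4 genes of this ring rose, by amounts from 0.53 to 1.84. Cdc45, which completes the helicase together with the ring, read 7.86, 8.15 and 8.13 in control and 8.73, 8.51 and 8.60 in shSep15 cells, a rise of 0.56 (SE 0.12, limma adjusted p = 0.0108). Its dimmer probe set gave 0.17 (limma adjusted p = 0.504), with overlapping groups.

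Polymerase alpha-primase, which starts every new strand, rose in all 4 subunits. The log2 differences on the brightest probe sets ran from 0.59 to 0.77. The catalytic subunit Pola1 read 9.38, 9.04 and 9.39 in control and 9.90, 9.98 and 9.69 in shSep15 cells (difference 0.59, SE 0.13, limma adjusted p = 0.0104). The rise of Pola1 was not past the threshold without shSep15 replicate 2 (0.52, limma adjusted p = 0.0543) or with the mean of its probe sets (0.30, limma adjusted p = 0.0753), of which the dimmer lies under background. Its partner Pola2 rose by 0.75 (SE 0.09, limma adjusted p = 0.000381), or by 0.36 with the mean of its probe sets, the others of which lie under background too. Of the primase subunits, Prim1, which makes the RNA primer, rose by 0.72 (SE 0.12), and Prim2 by 0.77 (SE 0.11). Other probe sets above background gave 0.98 for Prim1 and 0.70 for Prim2, past the threshold as well.

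Polymerase delta was split between its subunits. Pold1, the catalytic subunit with its proofreading exonuclease, read 8.20, 8.50 and 8.55 in control and 9.77, 9.91 and 9.56 in shSep15 cells. All shSep15 arrays lay above all controls, by 1.01 or more. Pold1 rose 2.52-fold (log2 1.33, SE 0.13, limma adjusted p = 0.000146), and its other probe set gave 1.56. Pold3, which tethers the enzyme to Pcna, rose by 0.46 (SE 0.10, limma adjusted p = 0.0128) on its brightest probe set and by 0.56 and 0.43 on the others. Without shSep15 replicate 2 the rise of Pold3 was 0.41 (limma adjusted p = 0.0517).

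Pold4, the smallest subunit, went the other way: 8.97, 9.21 and 8.85 in control cells against 8.58, 8.44 and 8.42 in shSep15 cells. No shSep15 array reached the lowest control. Pold4 fell by 0.53 on the log2 scale (SE 0.12, limma adjusted p = 0.0143), while its difference was −0.43 without control replicate 2, −0.51 without shSep15 replicate 2 and −0.50 without shSep15 replicate 3, with limma adjusted p of 0.0542, 0.057 and 0.0632. Pold2, the subunit that bridges the catalytic one to the rest, read 9.33, 9.12 and 9.31 against 9.78, 9.51 and 9.20. Its groups overlapped, and the 95% interval of the difference, −0.09 to 0.57, leaves room for no change as for a moderate rise. It was 0.10 without shSep15 replicate 1 and 0.39 without shSep15 replicate 3. Each of Pold2 and Pold4 was read by 1 probe set.

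Polymerase epsilon showed the same kind of split. Pole2, the subunit that links the enzyme to the GINS ring, read 8.53, 8.51 and 8.71 in control and 9.70, 9.68 and 9.90 in shSep15 cells. The gap between the groups was 0.97. Pole2 rose 2.26-fold (log2 1.17, SE 0.11, limma adjusted p = 9.3e-05). The catalytic subunit Pole rose by 0.45 (SE 0.12, limma adjusted p = 0.0332), from 8.37, 8.60 and 8.72 to 8.95, 9.15 and 8.94. That call lay close to the threshold. It was lost without control replicate 1 (0.35) or 2 (0.47) and without shSep15 replicate 1 (0.48), 2 (0.38) or 3 (0.48). The limma adjusted p in these fits ran from 0.0677 to 0.125.

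The histone-fold subunits Pole3 and Pole4, which pair with each other and bind histones and DNA, were not among the genes that rose. Pole3 read 10.46, 10.64 and 10.46 against 10.50, 10.40 and 10.47 (difference −0.06, interval −0.25 to 0.12), and its other probe sets gave −0.07 and 0.02. Pole4 read 10.69, 10.74 and 10.52 in control and 10.06, 9.95 and 10.02 in shSep15 cells on its brightest probe set. On that probe set the groups were apart and Pole4 fell by 0.64 (SE 0.09, limma adjusted p = 0.000819). A further Pole4 probe set, at 9.24, 9.37 and 9.24 against 9.38, 9.22 and 9.21, gave −0.01 (limma adjusted p = 0.966). The mean of the gene's probe sets gave −0.25 (limma adjusted p = 0.0604), so the fall rests on the brightest one.

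**Figure D3:**
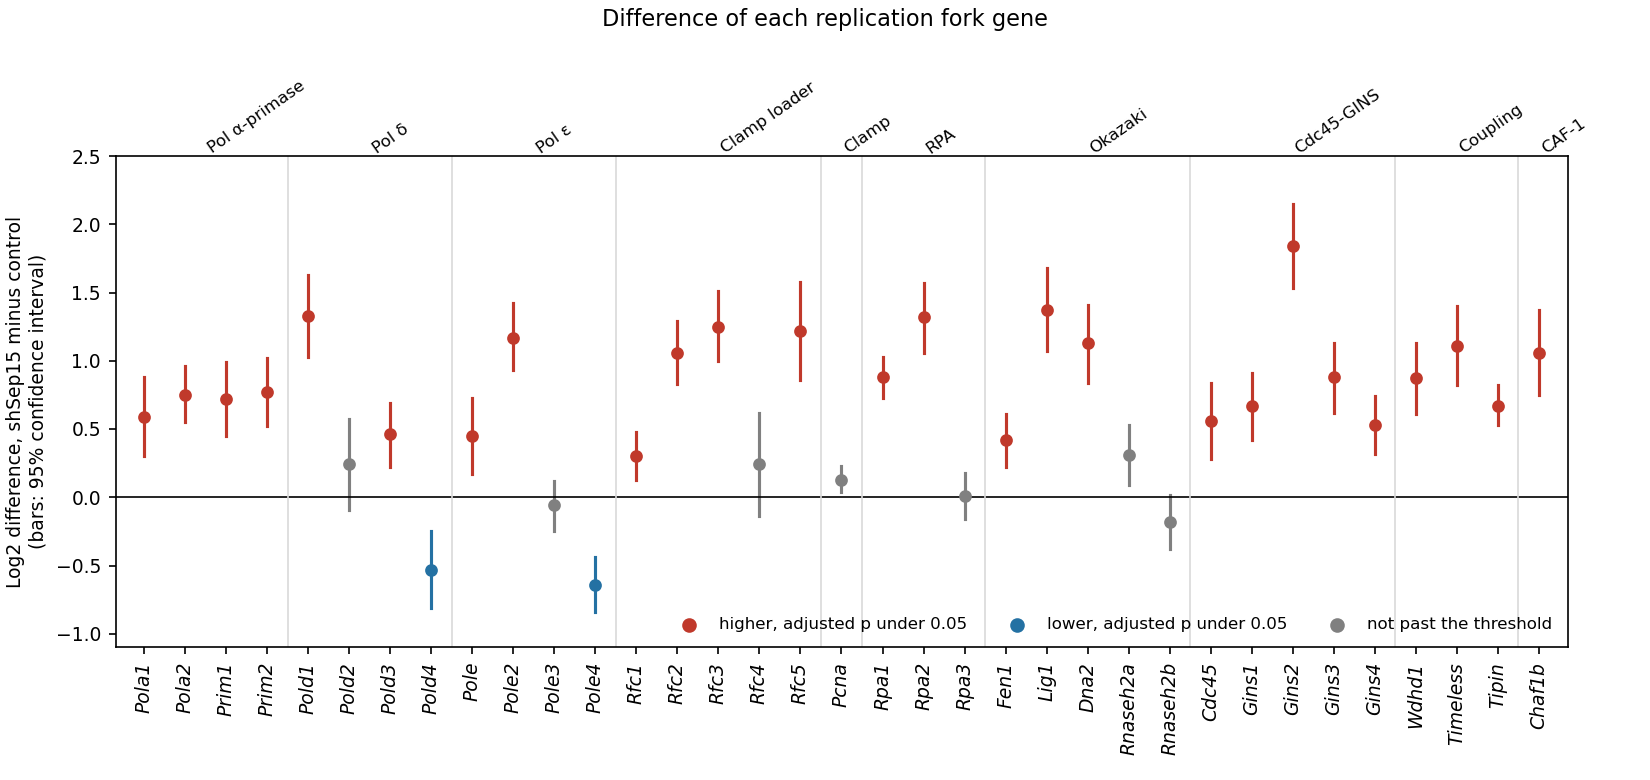
Log2 difference (shSep15 minus control) of each fork gene with its 95% confidence interval from limma, ordered by role; red rose, blue fell and grey was not past the threshold. The polymerase alpha-primase genes sit close together at 0.59 to 0.77, whereas polymerases delta and epsilon span 1.86 and 1.82 log2 units, from Pold4 and Pole4 below 0 to Pold1 at 1.33 and Pole2 at 1.17.

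Replication factor C, the clamp loader, rose in 4 of its 5 subunits. Rfc3 read 8.41, 8.68 and 8.43 in control and 9.83, 9.65 and 9.80 in shSep15 cells. The lowest shSep15 array stood 0.97 above the highest control, and Rfc3 rose 2.38-fold (log2 1.25, SE 0.11, limma adjusted p = 7.89e-05). The small subunits Rfc5 and Rfc2 rose by 1.22 (SE 0.16) and 1.06 (SE 0.10), at limma adjusted p of 0.000622 and 0.000104. A further Rfc2 probe set rose by 1.54, and a dimmer one rose from a control mean under the background level (5.55), so its size is not exact.

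Rfc4 and the large subunit Rfc1 moved less. Rfc4 read 9.74, 9.61 and 9.47 against 10.15, 9.46 and 9.94, with shSep15 2 just under the lowest control and the other shSep15 arrays above the highest. The Rfc4 difference of 0.24 was not past the threshold (interval −0.14 to 0.62, limma adjusted p = 0.411). It was 0.09 without shSep15 replicate 1 and 0.44 without shSep15 replicate 2 (limma adjusted p = 0.0588). A dimmer Rfc4 probe set did rise, from 7.97, 7.96 and 7.64 to 8.62, 8.45 and 8.51 (0.67, limma adjusted p = 0.00483), and the mean over the Rfc4 probe sets gave 0.46 (limma adjusted p = 0.0261). Rfc1 rose by 0.30 (SE 0.08, limma adjusted p = 0.0219), and its other probe sets gave 0.16, not past the threshold, and 0.52, past it. Without control replicate 2 or 3, or any 1 of the shSep15 arrays, the Rfc1 difference was 0.28 to 0.31 with a limma adjusted p of 0.053 to 0.0726.

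The clamp itself, Pcna, was nearly flat. It read 12.72, 12.71 and 12.69 in control and 12.80, 12.85 and 12.87 in shSep15 cells. The groups did not overlap, but they lay 0.08 apart. Its difference of 0.13 (SE 0.04, interval 0.04 to 0.23) narrowly missed the threshold (limma adjusted p = 0.0522), and passed it when dim probe sets were left out (0.028) or 1 probe set per gene was fitted (0.044). After quantile normalization the Pcna difference was 0.08 (limma adjusted p = 0.263). The interval lies under the median of the list. It covers only the spread between arrays in the signal of 1 probe set, so it does not bound the change of the RNA itself. Across the 35 members, those whose probe set had more signal in control cells had smaller differences (Pearson's r = −0.50, Spearman's rho = −0.52, points sharing the same 6 arrays), while over the 10876 genes above background rho was −0.15. The median difference was 1.06 for the 17 dimmest and 0.36 for the 18 brightest members. The control values enter both quantities, and signal does not give the order of RNA levels between genes.

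Replication protein A, which guards opened strands, was also divided. Rpa2, the subunit phosphorylated under replication stress, read 8.49, 8.67 and 8.32 in control and 9.83, 9.85 and 9.76 in shSep15 cells. The shSep15 arrays lay 1.09 or more above the controls. Rpa2 rose 2.5-fold (log2 1.32, SE 0.11, limma adjusted p = 5.87e-05). The large DNA-binding subunit Rpa1 read 11.02, 11.06 and 10.88 against 11.87, 11.84 and 11.88 and rose by 0.88 (SE 0.07, limma adjusted p = 3.11e-05), with 0.88 on its other probe set. Rpa3, the smallest subunit, overlapped between the groups at 10.80, 10.95 and 10.85 against 10.83, 10.84 and 10.96. Its interval of −0.16 to 0.18 lies wholly under those of Rpa1 (0.73 to 1.03) and Rpa2 (1.06 to 1.57), although the difference between the genes was not tested.

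Of the enzymes that finish the lagging strand, the ligase and the nucleases rose and ribonuclease H2 was not past the threshold. Lig1, which seals the fragments, read 9.50, 10.07 and 9.89 in control and 11.12, 11.24 and 11.21 in shSep15 cells. No control array came within 1.05 of the shSep15 arrays. It rose 2.59-fold (log2 1.37, SE 0.13, limma adjusted p = 0.000121). Dna2, a helicase-nuclease for long flaps, rose by 1.13 (SE 0.13, limma adjusted p = 0.00026) and read 7.31, 7.49 and 7.70 against 8.62, 8.59 and 8.68.

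Fen1, the flap endonuclease, rose by 0.42 (SE 0.08, limma adjusted p = 0.00739) on its brightest probe set and by 0.86 (SE 0.09, limma adjusted p = 0.000148) on the other. The brightest one bears the suffix x, which Affymetrix gave to sets with probes that may also match other transcripts. Rnaseh2a, the catalytic subunit of the enzyme that removes RNA primers, read 9.76, 9.98 and 9.94 against 10.30, 10.21 and 10.10. Its groups were apart, yet the difference of 0.31 (SE 0.10) missed the threshold at a limma adjusted p of 0.053. Rnaseh2a passed with other sets of features, at 0.0287 without dim probe sets, 0.032 with 1 probe set per gene and 0.0279 with means over probe sets. Rnaseh2b, its accessory subunit, lay lower on every shSep15 array (9.41, 9.32 and 9.31 against 9.52, 9.55 and 9.50), with a difference of −0.18 that was not past the threshold (limma adjusted p = 0.232).

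All 3 genes that couple the helicase to the polymerases rose. Timeless read 7.56, 7.95 and 7.95 in control and 8.89, 8.96 and 8.94 in shSep15 cells. Its groups were 0.95 apart, and it rose 2.16-fold (log2 1.11, SE 0.13, limma adjusted p = 0.000334), with 1.36 on the other probe set. Tipin, its binding partner in the fork protection complex, read 10.66, 10.74 and 10.74 against 11.38, 11.40 and 11.40. It rose by 0.67 (SE 0.06, limma adjusted p = 0.000105). Wdhd1, which ties polymerase alpha to the helicase, rose by 0.87 (SE 0.12, limma adjusted p = 0.000727). Behind the fork, Chaf1b of the chromatin assembly factor read 7.68, 7.92 and 7.52 against 8.62, 8.90 and 8.77 and rose by 1.06 (SE 0.14, limma adjusted p = 0.000588).

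Further probe sets of the members were read as a second measure. The 35 genes had 66 probe sets, of which 56 lay above background, and 42 of these rose and 2 fell, while of the 21380 such probe sets on the arrays 18% rose and 17.9% fell. Above background here means the mean over all 6 arrays. In both groups 55 were above it, of which 41 rose and 2 fell, the one left out being the dimmest of Rfc2. For 17 genes more than 1 probe set was above background. Of their 21 dimmer probe sets, 15 were called like the brightest one (14 without that Rfc2 set) and 2, both of Pole3, were past the threshold on neither. In 3 cases (Cdc45, Pole4 and a set of Rfc1) the brightest was called and the dimmer not, and for Rfc4 the reverse held. No member had probe sets called in opposite directions. Averaging all probe sets of a gene, those below background included, moved several differences by more than 1.5 times. It gave 0.61 for Pole2, 0.65 for Dna2, 0.62 for Chaf1b, 0.44 for Gins1, 0.37 for Cdc45 and 0.64 for Fen1, all past the threshold by limma.

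**Figure D4:**
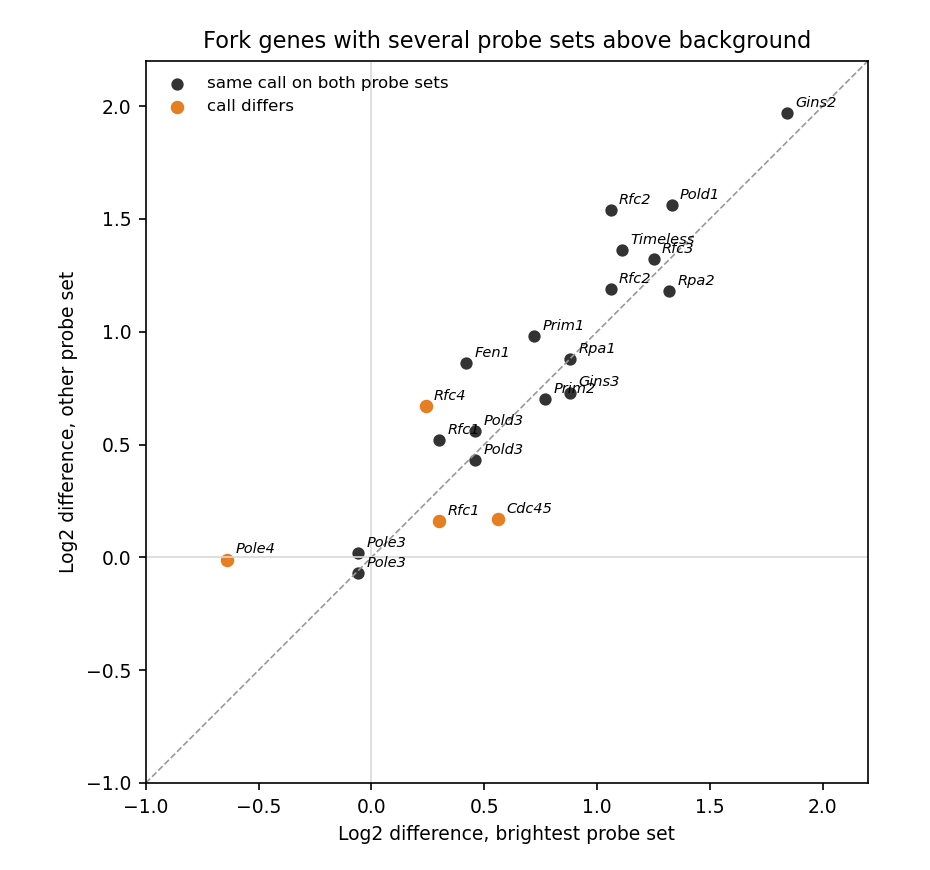
Log2 difference on the brightest probe set of a gene (horizontal axis) against that on each other probe set above background (vertical axis), for 21 probe sets of 17 fork genes; the dashed line marks equal values. Black points carry the same call on both, and the 4 orange points (Cdc45, Pole4, Rfc1 and Rfc4) do not.

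Other genes of DNA replication were listed beside the fork genes, with the lists chosen when earlier results of these data were known. Origin licensing, which loads the Mcm helicase, came first: 10 of 15 rose and 1 fell, with a median of 0.87, while of all genes above background 19.3% rose and 19.8% fell. Cdc6, the loader of the helicase, rose by 2.17 (SE 0.23), Gmnn, the licensing inhibitor, by 1.69 (SE 0.13), and the helicase subunits Mcm4 and Mcm7 by 1.34 and 1.09. The subunits Mcm3, Mcm5 and Mcm6 rose too, but Mcm2 was not past the threshold (0.06, limma adjusted p = 0.642). The member that fell was the origin binding subunit Orc2 (−0.51, limma adjusted p = 0.00563), named after its value was seen.

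Of 8 origin firing genes 6 rose and 1 fell (median 0.45), although only 3 rose without shSep15 replicate 2 or without shSep15 replicate 3. The kinase Cdc7 rose by 1.46 (SE 0.12), the scaffold Topbp1 by 0.82 (SE 0.10) and Ticrr by 0.62 (SE 0.13, or 0.31 with probe set means), and the helicase Recql4 fell (−0.53, limma adjusted p = 0.00919). Among 12 genes of the fork checkpoint and of alternative clamp loaders 6 rose and 0 fell by limma (median 0.43). Without control replicate 2, 1 was lower, and without control replicate 3 the median was 0.27. Dscc1 and Chtf18, both of the loader that aids sister chromatid cohesion, rose by 2.51 (SE 0.14) and 2.41 (SE 0.12) from control means under the background level (5.98 and 5.65), so these sizes are not exact. With probe set means Dscc1 gave 1.33. Chtf8, a further subunit of that loader, named after its value was seen, did not rise (−0.58, limma adjusted p = 0.121). The checkpoint mediator Clspn rose by 1.59 (SE 0.09) and the kinase Chek1 by 1.22 (SE 0.13), or by 0.91 and 0.53 with probe set means. Of the 5 histone chaperones Nasp (1.33, or 0.82 with probe set means), Asf1b (1.31) and Hat1 (0.80) rose, and of the 3 topoisomerases Top2a did (0.94). The chaperones Asf1a (0.03) and Rbbp4 (0.09) and the topoisomerases Top1 (−0.00) and Top2b (−0.07) were not past the threshold. Beside the counts of these lists, 19.3% of genes above background rose and 19.8% fell.

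In the translesion and repair list and in the mitochondrial list the counts that rose were near or under the 19.3% of all genes above background. Of 11 translesion and repair polymerases and cofactors 2 rose and 1 fell, with a median of 0.11. The bypass polymerase Polh rose by 1.00 (SE 0.13, limma adjusted p = 0.000503). Mad2l2 (0.40, limma adjusted p = 0.0439) and the base excision polymerase Polb (−0.45, limma adjusted p = 0.0256) lost their calls without single arrays. For Mad2l2 these were control replicate 1 or 3 or any 1 of the shSep15 arrays (limma adjusted p 0.0635 to 0.144), and for Polb control replicate 1 or 2 or shSep15 replicate 2 or 3 (0.0524 to 0.108), with probe set means giving −0.29 (limma adjusted p = 0.104). Mitochondrial DNA replication had 1 of 8 genes higher and 1 lower, with a median of −0.05. Without control replicate 1, 2 were higher, and without control replicate 2, 2 were lower. Polg2, an accessory subunit of the mitochondrial polymerase, rose by 0.62 (limma adjusted p = 0.0213), a call lost without shSep15 replicate 1 (0.0781) or 3 (0.0919), and Top1mt fell by 0.73 (limma adjusted p = 0.0037). No test compared these lists with the fork genes.

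**Figure D5:**
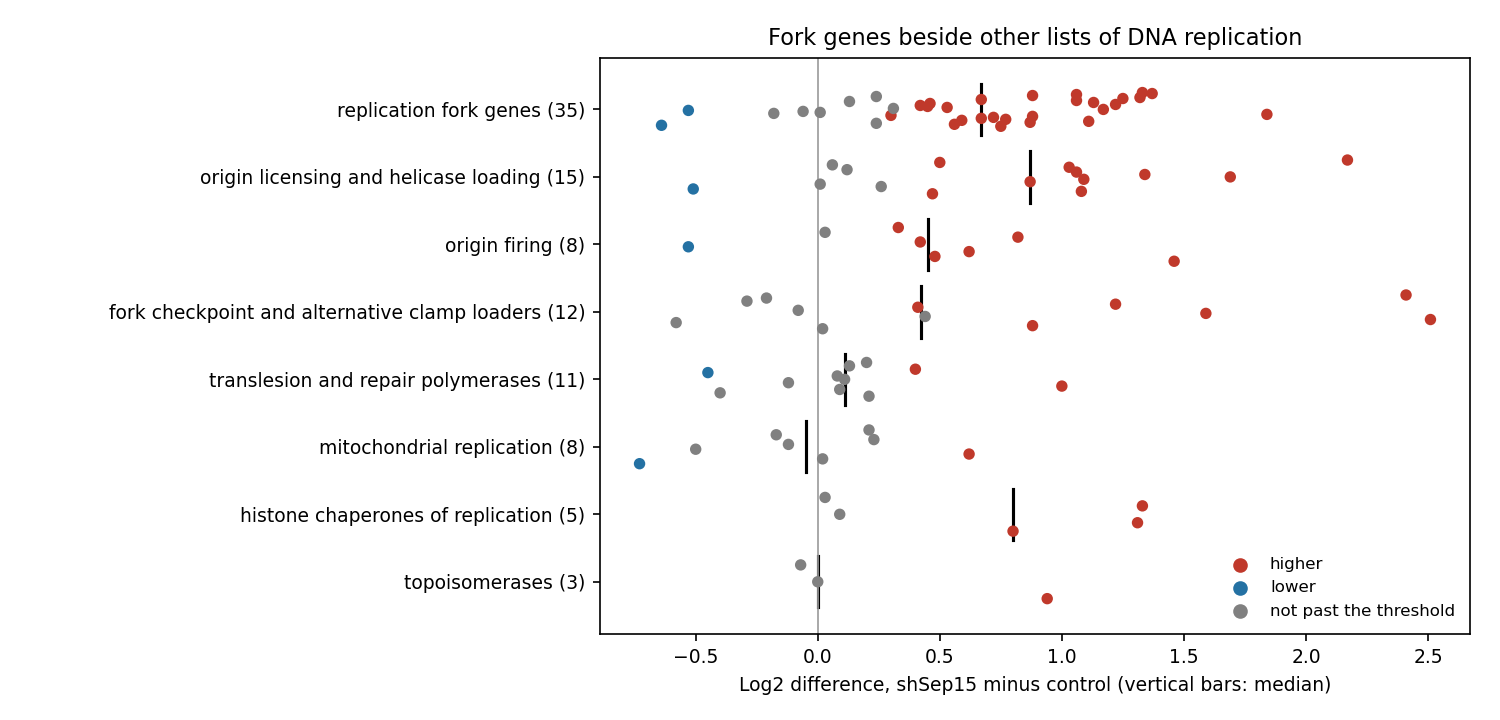
Log2 difference (shSep15 minus control) of each measured gene in the fork list and in 7 other lists of DNA replication, with the number of genes in brackets; red rose, blue fell, grey was not past the threshold, and vertical bars mark medians. Medians run from −0.05 for mitochondrial replication to 0.87 for origin licensing, with 0.67 for the fork genes.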

How the data were processed

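The authors' deposited values are log2 intensities of probe sets, computed by RMA (background correction, normalization between arrays, summary of probes) per the submitters' processing notes; its version is not given in the sources used here. Normalization between arrays hides a change of total RNA per cell. The 64 array controls were set aside and 45037 probe sets tested, of which 34945 had 1 gene symbol in the platform annotation. Symbols were updated through RefSeq's GRCm38.p6 table, where 34741 were found. The background level, 6.02, is the 95th percentile of the means of 80 olfactory and vomeronasal receptor probe sets.

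Fits used limma 3.58.1 in R 4.3.3 on every probe set (lmFit, eBayes with an intensity trend, group as the only term), with Benjamini-Hochberg adjustment over all 45037 at 0.05. The fit was also run on simulated data with independent noise and few changed probe sets. Many more changed here, so that run does not check the calls of these data. Differences are shSep15 minus control, and 95% intervals are per gene. Members, lists, motifs and alternatives were chosen with earlier results of these data known. Named were all members, Selenof, cell markers and up to 4 called genes per list with the greatest differences. Further genes of the lists were named after their values were seen. Alternatives covered the trend, scaling, the repeat number as a block, single arrays, probe set choice, dim probe sets and chromosomes. Deviations from the group mean correlated at 0.38, −0.15 and −0.022 between arrays with the same repeat number. Other pairs of arrays gave −0.362 to 0.367. With 3 arrays per group, whose deviations are tied to their own mean, these values cannot decide whether the numbers mark pairs. A planned search of protein motifs was not run.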

Additional observations from a re-analysis of the deposited data

How the results depend on the processing

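The count of fork genes that rose stayed between 22 and 28 under every alternative run, against 26. It was 22 to 25 with single arrays left out and 26 with the replicate block, in which 2 fell. Without chromosomes 3, 4, 17, 18 and X, 24 of 32 members rose and 2 fell. The count that fell was 1 to 2 with single arrays left out. Averaging a gene's probe sets gave 27 rises, 1 fall and a median of 0.53. The values of 22 of the 28 called members stayed on the same side of the threshold in all 13 alternatives. The difference of Rpa3 (0.01) turned to −0.00 with arrays shifted to the same median, and ran from −0.03 to 0.05 with single arrays left out, below 0 without control replicate 1 or shSep15 replicate 3.

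In the other lists, averaging probe sets gave medians of 0.70 for licensing and 0.26 for origin firing, 0 lower translesion genes and 2 lower mitochondrial genes. Leaving out single arrays, origin firing had 3 to 6 rises and medians of 0.40 to 0.51, checkpoint genes 0 to 1 falls, translesion genes 1 to 2 rises and 0 to 1 falls, and mitochondrial genes 0 to 2 rises and 1 to 2 falls. Higher translesion genes numbered 1 with arrays shifted to the same median and 1 with the replicate block, and higher mitochondrial genes 2 with the block. Mitochondrial genes that fell numbered 2 without dim probe sets and 2 with 1 probe set per gene. Mad2l2 was not past the threshold with the same median (limma adjusted p = 0.0598) or the replicate block (0.0644). The causes were not tested. Precision is limited by 3 arrays per group and by signal over background in dim probe sets.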
